A study of Zea mays with 12 samples.

Results

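The circadian clock and photoperiod genes described here were 6 maize genes named by their identifiers, out of 34423 genes listed in at least 1 of 12 libraries. They were cca1 (GRMZM2G014902), lhy (GRMZM2G474769), toc1 (GRMZM2G020081), gi1 (GRMZM2G107101), gi2 (GRMZM5G844173) and conz1 (GRMZM2G405368). All 6 were listed in every library and all 6 passed the filter on low counts. RNA-seq had been run on field-grown plants of the maize inbred line B104, either kept watered as the control or held under drought for 5 days. The groups were the young ear at the stage with 9 leaf collars (V9), the ear leaf and the kernel, both taken 5 days after pollination, all of them as control and as drought, with 2 libraries per group and organs of 4 plants in each library. The hour of day at which organs were collected is not given in the sources used here, and its part in the values below was not tested. Because the ear was of another stage than the leaf and kernel, organ and stage cannot be told apart where the ear is compared with them.

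The plant circadian clock is a loop of transcription factors that repress each other in turn over the day. In Arabidopsis, CCA1 and LHY are MYB-like factors made around dawn that repress the evening gene TOC1, a pseudo-response regulator, and TOC1 represses them in return. GIGANTEA is a large protein that accumulates late in the day, stabilises clock components and promotes CONSTANS, the zinc finger protein that activates the florigen gene FT in the photoperiod pathway. The transcripts of these genes rise and fall strongly with the hour. Maize has a pair of genes of the CCA1/LHY type, a pair of gigantea genes and the CONSTANS-like gene conz1.

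Library totals were 3429219 rounded counts in control ear leaf replicate 2 and 5117208 to 5452598 in the other 11. A level below is given in CPM, counts per 1000000 counts of the library after TMM scaling, and 3 counts corresponded to 0.466 to 1.31 CPM. The leaf label was borne out by the summed level of 4 photosynthetic markers (PEP carboxylase, NADP-malic enzyme, pyruvate phosphate dikinase and a Rubisco small subunit), which was 59694 to 62302 CPM in the control leaf, 10668 to 10783 CPM in the drought leaf and at most 183 CPM in other organs. The summed level of the ear markers knotted1 and ramosa1 was 274 to 275 CPM in the control ear and 206 to 210 CPM in the drought ear. That of the kernel markers miniature1 and shrunken2 was 69.5 to 83.4 CPM in the control kernel and 16.3 to 18.4 CPM in the drought kernel. Knotted1 and miniature1 stood above every library of the other organs, while ramosa1 and shrunken2 did not. All 3 sums were lower under drought in their own organ, and their part in the clock gene values was not tested. In such bulk organ samples, fewer cells of a type and less RNA per cell cannot be told apart.

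Under drought the morning genes cca1 and lhy fell together in the ear leaf and stood higher in the ear and the kernel. Both gigantea genes fell in the ear, and in the kernel gi1 stood lower while gi2 stood higher. A gene was called as differentially expressed where the adjusted p was under 0.001 and the log2 fold change was 1 or more in size, by the edgeR quasi-likelihood test with Benjamini-Hochberg adjustment over 26089 genes. In the ear, gi1 and gi2 were called, both lower, where 7.24% of all genes were called and 3.29% were called lower. In the ear leaf, cca1 and lhy were called, both lower, where 16.3% of all genes were called and 9.19% were called lower. In the kernel, lhy alone was called, as higher, where 27.1% of all genes were called and 13.7% were called higher. Most of the other differences between drought and control passed the p criterion but were smaller than the fold criterion. At an adjusted p under 0.001 and any fold, 5 of 6 members passed in the ear against 17.5% of all genes, 3 of 6 in the ear leaf against 25.3%, and 5 of 6 in the kernel against 41.2%.

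**Figure D1:**
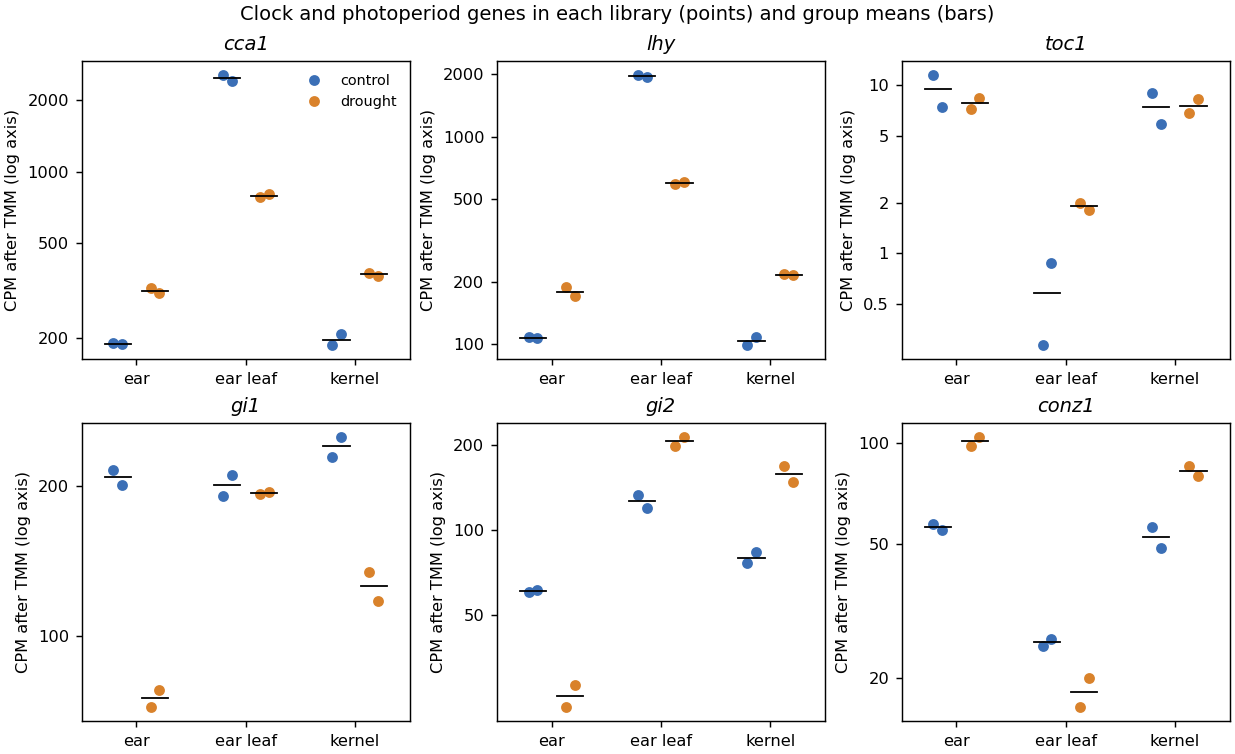
Level of each of the 6 genes in CPM after TMM scaling (vertical, log axis) in the ear, ear leaf and kernel, with 1 point per library, blue for control and orange for drought, and a bar at the mean of 2 libraries. The control ear leaf stands at 2394 to 2552 CPM for cca1 and at 1943 to 1996 CPM for lhy, far above every other group, while toc1 is lowest there.

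The morning gene cca1 was most abundant in the ear leaf. Its level in the ear leaf was 2552 and 2394 CPM in the control libraries and 782 and 805 CPM in the drought libraries. In the ear it was 191 and 189 CPM in the control and 324 and 309 CPM under drought. In the kernel it was 187 and 208 CPM in the control and 376 and 365 CPM under drought. The drought and control libraries did not overlap in any organ, with the drought leaf low against its control and the drought ear and kernel high against theirs. In the leaf the fall was 3.12-fold (log2 fold change -1.64, SE 0.06, adjusted p 3.9e-19). With library size scaling the leaf value was -1.30, a shift that the SE does not cover. In the ear the level was 1.67-fold higher (0.74, SE 0.06, adjusted p 1.2e-10) and in the kernel 1.88-fold higher (0.91, SE 0.06, adjusted p 3.3e-13), both short of the fold criterion. With TMM scaling, in ascending order the groups ran from the control ear and control kernel, which did not differ beyond their spread (adjusted p 0.43), through the drought ear, drought kernel and drought leaf to the control leaf. The order of the drought ear and drought kernel rests on the scaling. By the authors' FPKM, a value scaled by library size and gene length, the drought ear (135) stood above the drought kernel (130). Droughted organs were not tested against each other.

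The second morning gene, lhy, followed the same course. Its level in the ear leaf was 1996 and 1943 CPM in the control and 595 and 606 CPM under drought. In the ear it was 109 and 107 CPM in the control and 188 and 171 CPM under drought. Kernel libraries had 98.8 and 108 CPM in the control and 218 and 216 CPM under drought. Again no drought library overlapped the control libraries of its organ. Drought leaf libraries were 3.28-fold lower (log2 fold change -1.71, SE 0.06, adjusted p 3.4e-19) and drought ear libraries 1.66-fold higher (0.73, SE 0.07, adjusted p 7.2e-10). With library size scaling the leaf value was -1.38. In the kernel lhy rose 2.09-fold (1.07, SE 0.07, adjusted p 7.6e-14), just past the fold criterion. The kernel call was lost without control kernel replicate 1 (0.998, adjusted p 2.0e-12), with scaling by library size alone (0.86, adjusted p 2.2e-12) and where the null hypothesis was a 1-unit log2 change (adjusted p 0.21). With TMM scaling the order of the groups was that of cca1, except that the control kernel stood just below the control ear without differing beyond the spread (adjusted p 0.49). By FPKM the drought ear (94.5) and drought kernel (94.4) were level. A second gene model, GRMZM2G175265, which RefSeq places in the same gene as lhy, differed by 0.83 (ear), -1.49 (ear leaf) and 0.97 (kernel) on the log2 scale.

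Relative to gene length, cca1 and lhy stood near each other in the ear leaf. Their FPKM, the authors' length-scaled and library-size-scaled fragment value, was 554 ± 12.1 and 544 ± 2.74 (SD, n = 2) in the control leaf and 225 ± 5.27 and 209 ± 3.63 in the drought leaf. The share of lhy in the summed FPKM of both genes lay between 39.2% and 50.03% over the 12 libraries, and was 48.1% to 50.03% in the 4 leaf libraries and 39.2% to 42.2% in the other 8. So the composition of this pair varied by organ far less than its summed level. The expected counts of cca1 and lhy were not whole numbers in any library, to a tolerance of 0.005, as where reads are divided among gene models, so the split of reads is uncertain, and which models shared reads is not known. With the counts of both genes summed, the log2 difference was 0.74 (ear), -1.67 (ear leaf) and 0.96 (kernel).

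The evening gene toc1 was the least abundant of the 6 and had few counts. Its expected counts were whole numbers in 1 of 12 libraries, so the counts given here are rounded and the split of reads is uncertain. In the ear toc1 had 72 and 45 counts in the control and 46 and 54 under drought, or 11.5 and 7.37 CPM against 7.18 and 8.39 CPM. Kernel libraries had 55 and 37 counts in the control and 36 and 44 under drought, or 8.96 and 5.84 CPM against 6.77 and 8.24 CPM. Ear leaf libraries had 1 and 2 counts in the control and 9 and 8 under drought, or 0.284 and 0.872 CPM against 1.99 and 1.80 CPM. The drought and control libraries overlapped in the ear and the kernel and did not overlap in the ear leaf. The log2 fold change was -0.28 (SE 0.26, adjusted p 0.44) in the ear and 0.02 (SE 0.28, adjusted p 0.95) in the kernel. A drought difference in these organs was not detectable at this depth, and in the ear leaving out control ear replicate 1 turned the sign (0.08). In the ear leaf 17 counts under drought stood against 3 in the control, a ratio of 3.68 with a 95% exact interval of 1.07 to 19.6 that covers counting error only. The test across libraries did not call it (log2 fold change 1.83, SE 0.93, adjusted p 0.069). In ascending order came the control leaf, drought leaf, control kernel, drought kernel, drought ear and control ear. Of these neighbours, the kernel groups and the ear groups overlapped, while the leaf groups did not overlap but missed the adjusted threshold. The control leaf, where cca1 and lhy were highest, was thus the group with the fewest toc1 counts.

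gi1, also named gigantea1, fell in the ear. Its level in the ear was 215 and 200.2 CPM in the control and 72.1 and 78.3 CPM under drought. Kernel libraries had 228 and 250.3 CPM in the control and 134 and 118 CPM under drought. Ear leaf libraries had 191 and 209.7 CPM in the control and 193 and 194 CPM under drought. The drought libraries lay below the control libraries in the ear and the kernel and between them in the ear leaf. The fall in the ear was 2.76-fold (log2 fold change -1.46, SE 0.08, adjusted p 8.1e-14). In the kernel the level was 1.90-fold lower (-0.93, SE 0.08, adjusted p 1.0e-10), short of the fold criterion, which it passed with library size scaling (-1.13) and without drought kernel replicate 1 (-1.02). In the ear leaf the log2 fold change was -0.04 (SE 0.08, adjusted p 0.72), and it was 0.29 with library size scaling (adjusted p 0.0053), so its direction there rests on the scaling. With TMM scaling, in descending order the control kernel came first, then the control ear, control leaf and drought leaf, then the drought kernel and last the drought ear. Of these neighbours, the control ear and control leaf (adjusted p 0.54) and the control leaf and drought leaf (adjusted p 0.72) did not differ beyond their spread. This order rests on the scaling. With library size scaling the control leaf was lower than the control ear (log2 difference -0.90, adjusted p 8.4e-11). By FPKM the control leaf (32.5) stood below the drought leaf (39.9) and the drought kernel (33.0).

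gi2, the second gigantea gene, shared the fall of gi1 in the ear and stood higher under drought in the other organs. Its level in the ear was 60.6 and 61.6 CPM in the control and 23.6 and 28.3 CPM under drought. Ear leaf libraries had 133 and 120.3 CPM in the control and 199 and 214 CPM under drought. Kernel libraries had 76.7 and 83.4 CPM in the control and 169 and 148 CPM under drought. No drought library overlapped the control libraries of its organ, with the ear low and the leaf and kernel high. The fall in the ear was 2.35-fold (log2 fold change -1.24, SE 0.11, adjusted p 7.6e-10), and it was not called against a null of a 1-unit log2 change (adjusted p 0.12). The level was 1.63-fold higher in the ear leaf (0.70, SE 0.09, adjusted p 4.1e-07) and 1.98-fold higher in the kernel (0.99, SE 0.09, adjusted p 2.7e-10). Both lay short of the fold criterion, which the ear leaf passed with library size scaling (1.04) and the kernel passed without control kernel replicate 2 (1.05) or without drought kernel replicate 2 (1.08). With TMM scaling, in ascending order came the drought ear, control ear, control kernel, control leaf, drought kernel and drought leaf. By FPKM the control kernel (23.5) stood above the control leaf (20.6), so their order rests on the scaling.

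The balance between the gigantea genes therefore differed among groups. The share of gi2 in their summed FPKM was 21.9% and 22.8% in the control ear and 24.3% and 26.2% in the drought ear. It was 40.7% and 36.8% in the control leaf and 50.6% and 52.5% in the drought leaf. In the kernel it was 24.9% and 24.6% in the control and 55.0% and 55.3% under drought, so that gi1 stood about 3.01 to 3.06 times above gi2 in the watered kernel and below it in the droughted kernel. With the counts of gi1 and gi2 summed, the ear differed by -1.41 on the log2 scale (SE 0.08, adjusted p 3.0e-14), the leaf by 0.29 (SE 0.07, adjusted p 0.0021) and the kernel by -0.17 (SE 0.07, adjusted p 0.048). With TMM scaling the summed gigantea level in the kernel thus moved little while its parts moved in opposite directions. The summed FPKM of both genes, which carries the library size scaling, was 89.1 and 101 in the control kernel. Under drought it was 78.7 and 68.5, without overlap, so the steadiness of the sum rests on the scaling. The expected counts of gi1 and gi2 were not whole numbers in any library, so the split of reads is uncertain here too, and the part of read sharing in the opposite directions was not tested.

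**Figure D2:**
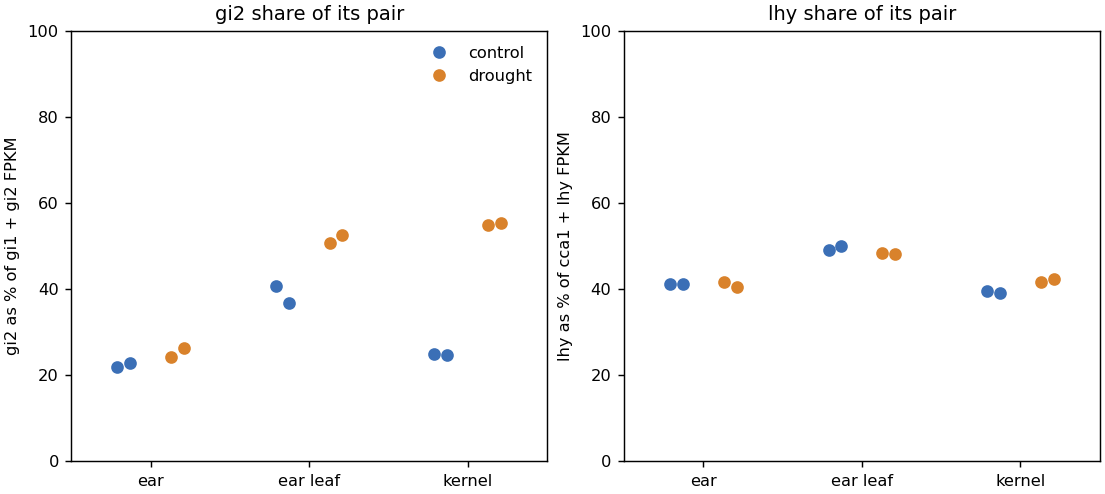
Share of gi2 in the summed FPKM of gi1 and gi2 (left) and of lhy in the summed FPKM of cca1 and lhy (right), in percent, with 1 point per library by organ, blue for control and orange for drought. The gi2 share is 24.6% to 24.9% in the control kernel and 55.0% to 55.3% in the drought kernel, while the lhy share stays between 39.2% and 50.03%.

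conz1, the CONSTANS-like gene, had whole expected counts in 12 of 12 libraries, so no division of reads between genes was seen. In the ear its level was 57.6 and 55.2 CPM in the control and 97.9 and 104 CPM under drought. The kernel had 56.2 and 48.8 CPM in the control and 85.2 and 80.0 CPM under drought. The ear leaf had 25.0 and 26.2 CPM in the control and 16.4 and 20.1 CPM under drought. After TMM scaling, the drought libraries lay above the control libraries in the ear and the kernel and below them in the ear leaf. The level was 1.79-fold higher in the ear (log2 fold change 0.84, SE 0.09, adjusted p 1.7e-08) and 1.57-fold higher in the kernel (0.65, SE 0.09, adjusted p 8.4e-07), both short of the fold criterion. Its leaf log2 fold change was -0.48 (SE 0.16, adjusted p 0.016), which missed both criteria. With library size scaling the leaf value was -0.14 (adjusted p 0.51), so the size of this difference rests on the scaling. The mean length assigned to conz1 ranged from 1591 to 1908 bases among libraries, so its FPKM reflects the mix of transcripts as well as its counts. In ascending order came the drought leaf, control leaf, control kernel, control ear, drought kernel and drought ear, of which the control kernel and control ear did not differ beyond their spread (adjusted p 0.37).

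**Figure D3:**
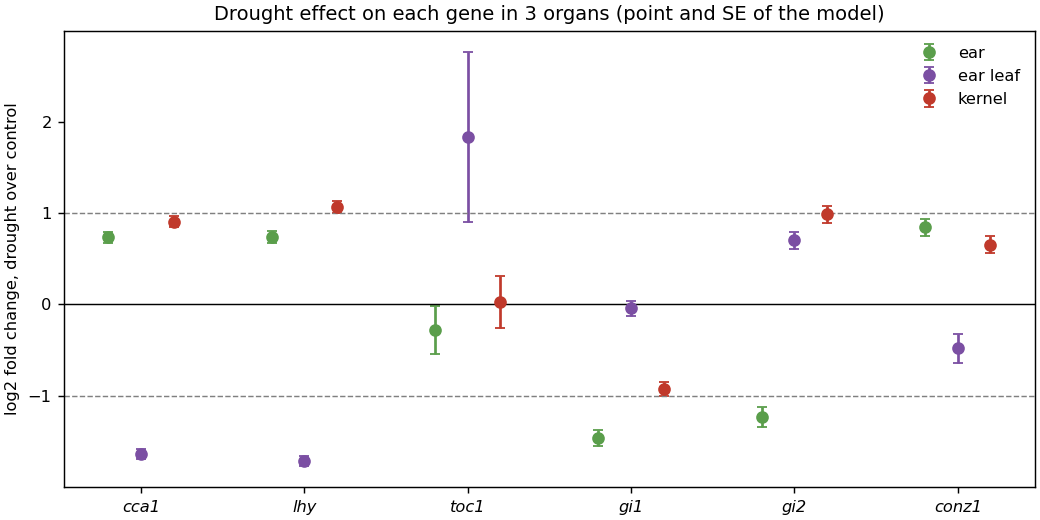
Log2 fold change of drought over control for each gene (vertical), with the SE of the model as bars, in the ear (green), the ear leaf (purple) and the kernel (red), with dashed lines at the fold criterion of 1 and -1. cca1 and lhy lie at -1.64 and -1.71 in the ear leaf and above 0 in the ear and kernel, gi2 lies at -1.24 in the ear and above 0 in the other organs, and toc1 has the widest bars.

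The 6 genes had a median log2 difference of 0.23 (ear), -0.26 (ear leaf) and 0.78 (kernel), beside -0.01, -0.03 and 0.00 over all genes tested. Drought and control libraries did not overlap for 5 of 6 members in each organ, beside 66.9%, 67.6% and 77.9% of all genes in the ear, ear leaf and kernel. Scaling by library size alone moved the median of all genes to 0.05 (ear), 0.28 (ear leaf) and -0.20 (kernel). Under that scaling the median of the 6 genes was 0.32, 0.08 and 0.58, so its sign turned in the ear leaf, and the kernel call passed from lhy, higher, to gi1, lower. Over all genes, calls higher and lower numbered 1030 and 858 (ear), 1861 and 2398 (ear leaf) and 3564 and 3514 (kernel), against 1244 and 680, 3099 and 1568, and 2907 and 4458 under library size scaling.

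The difference of the drought effect between organs was tested directly as an interaction, called at an adjusted p under 0.05. Each organ's own drought effect enters 2 of the 3 interactions, so these are not independent of each other. Between the ear leaf and the ear it was called for cca1, lhy, gi1, gi2 and conz1, or 5 of 6 members, where 35.9% of all genes were called. The drought effect on cca1 was lower in the leaf than in the ear by a log2 difference of -2.38 (SE 0.08, adjusted p 2.6e-18), that on lhy by -2.45 (SE 0.09, adjusted p 4.6e-18) and that on conz1 by -1.33 (SE 0.18, adjusted p 1.7e-06). The effect on gi1 was higher in the leaf by 1.42 (SE 0.12, adjusted p 2.0e-10) and that on gi2 by 1.94 (SE 0.15, adjusted p 2.1e-11). The morning genes and conz1 thus differed one way and the gigantea genes the other.

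Between the kernel and the ear leaf, cca1, lhy, gi1 and conz1 were called, 4 of 6 members, where 45.8% of all genes were called. The effect was higher in the kernel by 2.55 for cca1, 2.78 for lhy and 1.14 for conz1, and it was -0.88 for gi1. For gi2 the difference was 0.28 (SE 0.13, adjusted p 0.075), and it turned to -0.26 with library size scaling. It was called, at 0.34, 0.34 and 0.38, when control ear leaf replicate 2, control kernel replicate 2 or drought kernel replicate 2 was left out (adjusted p 0.041, 0.0495 and 0.039). Between the kernel and the ear, lhy, gi1 and gi2 were called, 3 of 6 members, where 39.3% of all genes were called. The gi2 difference of 2.22 (SE 0.14, adjusted p 8.8e-13) was the largest there, beside 0.54 for gi1 and 0.33 for lhy, and the calls of the last 2 were lost with library size scaling (0.24, adjusted p 0.10, and 0.04, adjusted p 0.79). The conz1 interaction, -0.19 with TMM (adjusted p 0.27), was called with library size scaling (-0.48, adjusted p 0.0046), and that of cca1, 0.17 (adjusted p 0.11), was called without control kernel replicate 2 (0.25, adjusted p 0.0073). The lhy call there was also lost without drought ear replicate 2 (0.26, adjusted p 0.050). For toc1 no interaction was called, and those with the leaf lay close to the threshold, with 2.11 (SE 0.97, adjusted p 0.052) between leaf and ear and -1.81 (SE 0.97, adjusted p 0.089) between kernel and leaf. With library size scaling both were called (adjusted p 0.026 and 0.021). Without control ear leaf replicate 1 they were 1.39 and -1.08, and without control ear leaf replicate 2 they were 2.93 and -2.63, none of these called.

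In watered plants the ear leaf stood apart from both other organs, between which no member was called. These contrasts share their control libraries with the drought contrasts. Between the control leaf and control ear, 5 of 6 members were called, where 48.7% of all genes were called. In the leaf cca1 was 13.0-fold higher (log2 difference 3.70, SE 0.06, adjusted p 4.2e-27) and lhy 18.3-fold higher (4.19, SE 0.06, adjusted p 1.3e-27), gi2 was 2.08-fold higher (1.06, SE 0.10), and conz1 was 2.22-fold lower (-1.15, SE 0.13). For toc1 the control leaf held 3 counts in all, and the fitted log2 difference was -4.13 (SE 0.87, adjusted p 2.2e-07), which was -3.41 without control ear leaf replicate 1 and -4.95 without replicate 2. The gi2 call was lost with library size scaling (0.22, adjusted p 0.048) and without control ear leaf replicate 1 (0.97, adjusted p 1.4e-07). For gi1 the log2 difference was -0.06 (SE 0.08, adjusted p 0.54), and with library size scaling it was -0.90 (adjusted p 8.4e-11). Scaling by library size moved the median of all genes in this contrast from -0.01 to -0.85. With that scaling the log2 difference was 2.87 for cca1, 3.35 for lhy, -1.99 for conz1 and -4.94 for toc1.

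Between the control kernel and control leaf, 4 of 6 members were called, where 44.9% of all genes were called. There cca1 was lower in the kernel by a log2 difference of -3.65 and lhy by -4.25, while toc1 was higher by 3.78 and conz1 by 1.04. With library size scaling these were -2.79 for cca1, -3.40 for lhy, 4.60 for toc1 and 1.90 for conz1. The toc1 value rests on the same 3 leaf counts and was 3.05 and 4.60 without control ear leaf replicates 1 and 2. The conz1 call was lost without control kernel replicate 1 (0.95). For gi1 the log2 difference was 0.26 (SE 0.08, adjusted p 0.0056), and with library size scaling it was 1.12 (adjusted p 7.0e-13), which made 5 members called. For gi2 the log2 difference was -0.67, and it turned to 0.19 with library size scaling, which moved the median of all genes from 0.00 to 0.86. Between the control kernel and control ear, 0 of 6 members were called, where 24.0% of all genes were called. DESeq2 also called 0 there, and 2 members, gi1 and gi2, had an unadjusted p under 0.05 in the edgeR test. The share of all genes at that cut is not given here, but 38.7% passed even an adjusted p under 0.001 at any fold. The log2 differences of kernel over ear were 0.06 for cca1, -0.06 for lhy, -0.36 for toc1, 0.21 for gi1 (adjusted p 0.025), 0.39 for gi2 (adjusted p 0.0011) and -0.10 for conz1.

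Within each library the order of the 6 genes could be read from FPKM, which is per length. In the control ear the order was cca1 (76.0 ± 0.97 FPKM), gi1 (61.7 ± 1.77), lhy (53.3 ± 0.95), conz1 (36.1 ± 1.41), gi2 (17.8 ± 0.13) and toc1 (4.90 ± 1.69, SD, n = 2). The control kernel had the same order, from cca1 at 80.0 ± 7.83 FPKM to toc1 at 3.73 ± 1.02, with cca1 and gi1 (71.5 ± 6.54) near each other. In the drought ear gi1 stood at 23.7 ± 1.44 FPKM, below lhy (94.5 ± 5.71) and conz1 (68.6 ± 6.46). In the drought kernel gi1 stood at 33.0 ± 3.401 FPKM, below gi2 at 40.6 ± 3.81. Throughout, cca1 was first and toc1 last in the mean of every group.

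The ratio of the summed cca1 and lhy FPKM to the summed gi1 and gi2 FPKM set the morning against the later genes within each library, free of the scaling between libraries. It was 1.62 and 1.63 in the control ear and 7.88 and 6.64 in the drought ear. For the ear leaf it was 21.2 and 20.2 in the control and 5.30 and 5.23 under drought. For the kernel it was 1.38 and 1.39 in the control and 2.89 and 3.25 under drought. The ratio was thus higher under drought in the ear and the kernel and lower in the ear leaf, with no overlap between libraries, and the 3 organs lay nearer to each other under drought than in watered plants. With 2 libraries against 2, no test on this ratio was made.

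**Figure D4:**
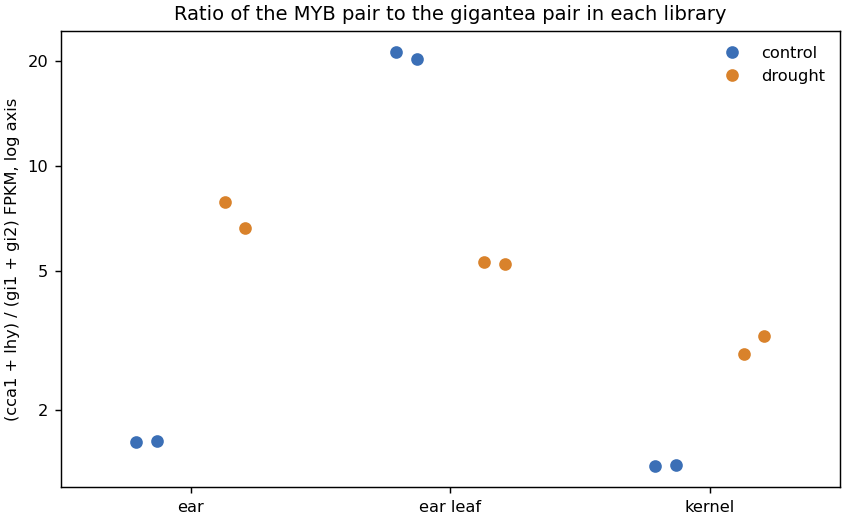
Ratio of the summed FPKM of cca1 and lhy to that of gi1 and gi2 (vertical, log axis) in each library by organ, blue for control and orange for drought. The control libraries lie at 1.38 to 1.63 in the ear and kernel and at 20.2 to 21.2 in the ear leaf, while the drought libraries lie between 2.89 and 7.88.

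Other genes of the pathway were taken from a list of clock, photoreceptor and florigen names in RefSeq. Of 26 entries, 23 were listed in the files and 14 passed the filter on low counts. They were 7 of the florigen family (ZCN genes, relatives of FT and TFL1), 5 phytochrome gene models, the pseudo-response regulator PRR59 and id1 (indeterminate1, a zinc finger regulator of the floral transition). In the ear 0 of 14 were called by edgeR, where 7.24% of all genes were called, and 0 by DESeq2. In the edgeR test 5 of 14 had an unadjusted p under 0.05. The share of all genes at that cut is not given here, but 17.5% passed even an adjusted p under 0.001 at any fold. Leaf calls numbered 4 of 14, all lower, where 16.3% of all genes were called. With library size scaling these became 3 lower and 1 higher, as ZCN14 missed the fold criterion (-0.96) and id1 passed as higher (2.28, adjusted p 1.7e-04, against 1.95 and 0.0014 with TMM). Kernel calls numbered 5 of 14, 3 higher and 2 lower, where 27.1% of all genes were called. DESeq2 called 1 higher and 2 lower there. The median log2 fold change over the 14 genes was 0.35, -0.89 and 0.55 in the ear, ear leaf and kernel, in each organ of the same sign with library size scaling (0.44, -0.55 and 0.35).

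In the ear leaf the called genes were ZCN7, ZCN8, ZCN14 and PhyB2. ZCN8, known in maize as a florigen made in leaves, had 105 and 48 counts in the control leaf and 4 and 3 under drought, a ratio of 33.6 (95% exact interval 15.9 to 85.1, counting error only), and its log2 fold change was -4.99 (SE 0.60, adjusted p 2.9e-10). ZCN7 had 87 and 55 counts in the control and 3 and 1 under drought, a ratio of 54.6 (20.9 to 203, adjusted p 4.5e-09). Both of these florigen genes were thus near the limit of detection in the drought leaf. ZCN14 fell from 39.6 ± 1.75 to 16.2 ± 3.403 CPM (log2 fold change -1.30, SE 0.19, adjusted p 1.7e-06). The phytochrome gene PhyB2 fell from 8.83 ± 0.46 to 1.89 ± 1.39 CPM (-2.20, SE 0.47, adjusted p 1.4e-04). This rests on few counts, 30 and 21 in the control and 13 and 4 under drought.

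In the kernel PhyB2 rose from 5.99 ± 2.48 to 19.5 ± 0.06 CPM (log2 fold change 1.70, SE 0.26, adjusted p 1.9e-06), the direction opposite to that in the leaf. ZCN11 had 0 and 2 counts in the control and 24 and 18 under drought, a ratio of 24.6 (95% exact interval 6.40 to 209.7, counting error only). In the ear leaf ZCN11 was also higher, with 1 and 0 counts in the control and 9 and 11 under drought. That leaf difference was not called (log2 fold change 3.53, adjusted p 0.010). The ZCN10 model GRMZM2G152689 had 0 counts in both control kernels and 10 and 13 under drought, at least 4.42-fold higher against a floor of 3 counts per library. A second ZCN10 model, GRMZM2G059358, had 0 counts in both control kernels and 10 and 6 under drought, and did not pass the filter on low counts. The gene id1 fell from 12.7 ± 2.32 to 4.51 ± 0.55 CPM (-1.49, SE 0.30, adjusted p 7.3e-05). The PHYC model GRMZM2G129889 fell from 44.7 ± 0.97 to 20.8 ± 0.07 CPM (-1.10, SE 0.13, adjusted p 2.5e-08), while a second PHYC model, GRMZM2G129913, had a log2 fold change of 0.65 (adjusted p 0.055). The count of 5 in the kernel went to 2 without control kernel replicate 1, to 2 without drought kernel replicate 1 and to 3 without drought kernel replicate 2.

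The genes whose log2(CPM + 1) over the 12 libraries was most like that of each member are given as a description, with Pearson's r. All points share the same 12 libraries, and differences between organs enter r together with those between water regimes. The most like gene to cca1 was lhy (r = 0.999), followed by GRMZM2G343636 and GRMZM2G127374 (both 0.995). After cca1, lhy was most like GRMZM2G127374 and GRMZM2G082998 (both 0.995). For toc1 they were GRMZM2G022318 and GRMZM2G032337 (both 0.978) and GRMZM2G033649 (0.977), and r between toc1 and cca1 was -0.948. For gi1 the likeness was lower, with GRMZM2G435373 (0.925), GRMZM2G050460 (0.922) and GRMZM5G883741 (0.913). For gi2 they were GRMZM2G134073 (0.984), GRMZM2G113250 (0.981) and GRMZM2G170281 (0.980), and r between gi1 and gi2 was 0.540. For conz1 they were GRMZM2G370715 (0.986), GRMZM2G086450 (0.983) and GRMZM2G044306 (0.982), named RPB1 in RefSeq.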

How the data were processed

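RNA-seq libraries (12, from 3 organs under 2 water regimes) were sequenced and quantified by the authors. Per the file headers, the deposited files give an expected count and an FPKM value per gene, FPKM being the authors' fragment value scaled by transcript length and library size. The aligner, counter, genome build and annotation are not given in the sources used here. Genes missing from a library's file were taken as 0, and expected counts were rounded to whole numbers. The gene names came with the gene set. RefSeq names gi1 gigantea1 or gigz1a, gi2 gigz1b and conz1 as such, and gives no such name for cca1, lhy and toc1 (18529 of the listed genes matched a RefSeq row, used for names only).

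Counts were fitted in edgeR 4.0.16 (R 4.3.3) with TMM factors and the default filter (26089 genes) as 1 quasi-likelihood model of 6 group means, with 6 residual degrees of freedom and a common biological coefficient of variation of 0.062. Calls needed an adjusted p under 0.001 with a log2 fold change of 1 or more in size, after the study's thresholds, and interactions an adjusted p under 0.05. The p-values rest on the spread between 2 pooled libraries per group, taken over all 6 groups. Each gene's spread was also drawn toward that of all genes, with a median of 20.0 prior degrees of freedom. Alternatives were library size scaling, DESeq2 1.42.0, other filters, each organ alone, a null of a 1-unit log2 change, limma 3.58.1 on log2(FPKM + 1) and log2(FPKM + 0.1), a replicate block, each library left out, and, added after the data were seen, summed counts of the gene pairs. Named genes were the 6 members, list genes called in at least 1 organ and the 3 genes most like each member. Models of the same list gene as a called one, and GRMZM2G175265, were named after their values were seen. The members and lists were chosen with earlier results of these data known.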

Additional observations from a re-analysis of the deposited data

Results flagged for a closer look

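The drought effect differed between organs, by the edgeR interaction test at an adjusted p under 0.05, in 12 of the 18 tests made (6 genes, 3 organ pairs). Over all genes 35.9%, 39.3% and 45.8% were called between ear leaf and ear, kernel and ear, and kernel and ear leaf. Between the ear leaf and the ear the log2 difference was -2.38 for cca1, -2.45 for lhy, -1.33 for conz1, 1.42 for gi1 and 1.94 for gi2. Between the kernel and the ear it was 0.54 for gi1, 0.33 for lhy and 2.22 for gi2. Between the kernel and the ear leaf it was 2.55 for cca1, 2.78 for lhy, 1.14 for conz1 and -0.88 for gi1. No group had enough libraries for a search for single libraries far from the rest.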

How the results depend on the processing

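The calls of cca1 and lhy in the ear leaf and of gi1 in the ear held under every alternative run. A null of a 1-unit log2 change reduced the members called to 1 in the ear, 0 in the kernel, 3 in watered leaf against ear and 3 in watered kernel against leaf, and, among interactions, to 4 for leaf against ear (conz1 lost, adjusted p 0.099), 1 for kernel against ear and 2 for kernel against leaf. The share of all genes called fell too, to 2.26%, 8.04% and 14.4% in the ear, leaf and kernel under drought. In watered plants the share was 36.5% for leaf against ear and 32.2% for kernel against leaf. Among interactions it was 9.97% for leaf against ear, 10.5% for kernel against ear and 18.0% for kernel against leaf. The same null reduced the list genes called to 2 in the leaf and 1 in the kernel. The list count in the leaf was 2 with limma on log2(FPKM + 0.1), where 2463 of 26089 genes were called higher and 1053 lower. It was 8 at an adjusted p under 0.05 with the same fold criterion. The share of all genes called at that cut is not given here, so the 8 cannot be set against a background. The list count in the kernel was 3 with a mean of at least 10 counts, 3 with DESeq2 and 3 with limma on log2(FPKM + 0.1).

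Leaving out 1 library at a time, members called in the kernel ranged from 0 (without control kernel replicate 1) to 2 (without any of the other 3 kernel libraries), and list genes called from 3 to 4 in the leaf and from 2 to 5 in the kernel. Signs turned, none of them for a called value, for toc1 in the ear (-0.57 to 0.077) and kernel (-0.26 to 0.36), for gi1 in the ear leaf (-0.11 to 0.023) and in watered leaf against ear (-0.13 to 0.0079), in watered kernel against ear for cca1 (-0.023 to 0.14), lhy (-0.13 to 0.0090) and toc1 (-0.69 to 0.00062), and for the toc1 interaction of kernel with ear, which was -0.055 without control ear replicate 1 and at most 0.64 otherwise.

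With library size scaling, limma on log2(FPKM + 1) and limma on log2(FPKM + 0.1), in this order, signs turned for gi1 in the ear leaf (0.29, 0.29, 0.30), toc1 in the kernel (-0.17, -0.11, -0.14), gi2 in watered kernel against leaf (0.19, 0.18, 0.19), the cca1 interaction of kernel with ear (-0.13, -0.12, -0.12) and the gi2 interaction of kernel with leaf (-0.256, -0.253, -0.262). FPKM carries the library size scaling. toc1 in the kernel was -0.035 with DESeq2. With the gigantea counts summed, the value was 0.29 for the ear leaf, where gi1 alone was -0.04, and -0.17 for the kernel, where gi2 alone was 0.99. Causes beyond scaling were not tested.

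The replicate numbers are not stated to pair plants, and the deviations of same-numbered libraries correlated at 0.010, -0.0036 and 0.011 in the ear, leaf and kernel. With the replicate block, members called numbered 2, 2 and 1 in the ear, leaf and kernel, and lhy in the kernel was 1.07. The block changed 1 member's call, the gi2 interaction of kernel with leaf (0.29, adjusted p 0.047), so that 5 members were called there. For toc1 the leaf against ear interaction was also called with a mean of at least 10 counts, with limma on log2(FPKM + 0.1) and without control ear replicate 2 or either control kernel replicate, and the kernel against leaf interaction with limma on log2(FPKM + 0.1) and without control kernel replicate 2. Fitted with each organ alone, toc1 in the ear leaf fell below the filter and has no value. Low counts limit toc1, ZCN7, ZCN8, ZCN10 and ZCN11, and also PhyB2 in the ear leaf. Control ear leaf replicate 2 was the shallowest library.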
